A study of Xenopus laevis with 2 samples.

Results

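Messenger RNAs of the cell cycle and of DNA replication were examined in the axons of Xenopus laevis retinal ganglion cells (RGCs). They were selected by symbol only, from a fixed pattern that takes mcm2 to mcm10, cyclins A, B, D and E, numbered CDKs, cdc6, cdc20, cdc25a to cdc25c, cdc45, orc1 to orc6, Aurora and Polo-like kinases, bub1 and bub1b, rfc1 to rfc5, pcna, top2a and mki67. Of the 49349 gene names listed, 101 matched, standing for 68 symbols. The endings L and S mark the homeologs of the allotetraploid Xenopus laevis genome. The pattern also took aurkaip1 and ccnb1ip1, which only begin with a matching symbol, and both were listed at 0.

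Dividing cells copy their DNA once per cycle and then separate the copies. Origins are marked by the origin recognition complex (ORC) with CDC6, the MCM helicase unwinds the DNA, and the clamp loader RFC places the sliding clamp PCNA on it. Cyclins and cyclin-dependent kinases (CDKs), with the CDC25 phosphatases, Aurora and Polo-like kinases and the spindle checkpoint, drive the steps from G1 to mitosis. RGCs are neurons that have left the cycle, and their axons hold no nucleus. Levels of these mRNAs in an axon preparation could come from other, dividing cells or from the axons themselves, and their source was not tested here. Some of the families also have members with roles outside division. The study reports that it checked the purity of its axon material by RT-PCR and by staining for factors of cell bodies and nuclei.

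The samples were 2 replicate libraries of a single condition, RGC axons of embryos with no stated treatment. Whole eyes of stage 33/34 to 37/38 embryos, 500 per library, were cultured for 48 hours on a filter with 1 µm pores, through which axons grow while cell bodies are held back, and the eyes were then taken off. No cell body, eye or embryo library was analysed here, so the values say what was found in the axon material and not whether it was higher or lower than elsewhere. The labels name no strain, and the study's methods state that its frog replicates came from separate embryo batches. Values are FPKM, which scale the number of sequenced fragments by transcript length and by the total of the library. Levels of genes are set side by side on this scale, though the cDNA was amplified by PCR, whose effect was not tested.

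FPKM values carry no read counts, so total depth is unknown. The steps of low values put replicate 1 at 3.71 times the depth of replicate 2. This estimate takes their most frequent ratio to stand for equal read numbers, which was not tested. Of all gene names, 3148 had a value above 0 in replicate 1 and 2873 in replicate 2. Whether a value of 0 is absence of the mRNA or a failed estimate was not tested. In both libraries, 93.2% of all gene names were listed at 0. They include hprt1, polr2a and tbp, genes of general use picked after their values were seen. A gene with no value is therefore only said to be listed at 0, or at 0. In such bulk material, fewer cells of a type and less RNA per cell cannot be told apart. Of 20 gene names of the RGC and axon markers, stmn2.L, stmn2.S and gap43.L were over 1 FPKM in both libraries, while 16 were listed at 0. Among the 16 were those of the RGC transcription factors pou4f1, pou4f2 and isl1 and of the neurofilaments nefl and nefm. Of all gene names that carry a symbol, 8.56% were over 1 FPKM in both libraries and 87.1% were at 0 in both. No difference from these shares, and no loss of RGC mRNAs, is read from so few names.

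Few of the cell cycle and replication mRNAs were found in the axon libraries. Of the 101 gene names, 8 (7.92%) were over 1 FPKM in both libraries, against 2168 of all 49349 gene names (4.39%). The wider set contains numbered gene models and transfer RNAs, and among the 20300 gene names that carry a symbol 1738 (8.56%) passed the same limit. The share of the 101 gene names thus lay near that of symbol-bearing genes. A further 5 of the 101 were above 0 in one library or both without passing. The other 88 (87.1%) were listed at 0 in both, as were 87.1% of all gene names with a symbol. A narrower set left out plk2, plk3, aurkaip1, ccnb1ip1 and all CDKs other than cdk1, cdk2, cdk4 and cdk6. Of its 77 gene names, 4 (5.19%) passed, and of the 24 left out, 4 (16.7%) did. With so few names, no difference between these shares and the background is read. No test was made, since there is 1 condition and the genes are not replicates.

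The 8 gene names were those of pcna, aurkb, cdk13, ccnd2, cdc25c, cdk9, cdk8 and cdk17. Together with the other members they added up to 428.7 FPKM in replicate 1, against 447.5 FPKM in replicate 2, which was 0.0691% and 0.0617% of the summed FPKM of the libraries. The names of pcna, cdk13 and aurkb alone made up 82.2% of that sum in replicate 1 and 81.0% in replicate 2.

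**Figure D1:**
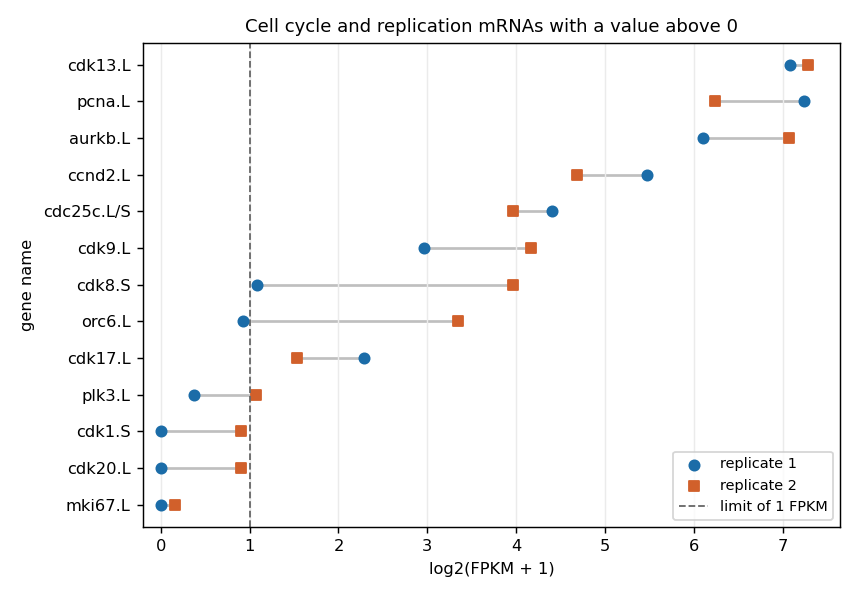
Level of the 13 gene names with a value above 0, as log2(FPKM + 1) on the x axis, in replicate 1 (circles) and replicate 2 (squares), ordered by average from top to bottom. The grey bars join the libraries and the dashed line is the limit of 1 FPKM; cdk13, pcna and aurkb lie highest in both libraries, and the gap between libraries is widest for cdk8.

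Most of the replication machinery was listed at 0, as were most genes in these libraries. All 13 gene names with an mcm symbol, mcm2 to mcm10, were at 0 in both libraries. They include the 10 of mcm2 to mcm7, the subunits of the replicative ring that opens the DNA for the replication fork. The 6 gene names of the RFC clamp loader, rfc1 to rfc5, were also at 0, as were the 3 names of cdc6 and cdc45, which load and activate the helicase. Over these groups and ORC, 27 of 28 gene names were listed at 0 and 0 passed the limit in both libraries, beside 87.1% at 0 and 8.56% passing among all gene names with a symbol. With so few names, no difference from that background is read from these counts.

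The exception was orc6.L, which codes for a subunit of the origin recognition complex. It had 0.895 FPKM in replicate 1, against 9.13 FPKM in replicate 2, so only replicate 2 was over the limit. Its locus is on chromosome 4L, from 61219149 to 61227156. The 5 other ORC names, of orc1 to orc5, were at 0.

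PCNA, the clamp that holds DNA polymerases on their template, was the one replication protein of the set with mRNA over 1 FPKM in both libraries. The gene name MGC53867,pcna.L, placed by the files on chromosome 3L from 115073812 to 115078823 (build v9.2, as are all positions here), had 150 FPKM in replicate 1, against 74.3 FPKM in replicate 2. Replicate 1 was 2.02-fold higher. By average FPKM it ranked at place 568 of the 2168 gene names over the limit. A second row, named pcna.L but placed on chromosome 3S from 29475676 to 29481139, was listed at 0 in both libraries.

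The nuclear proteins most used to mark dividing cells did not pass the limit, which 8.56% of all gene names with a symbol passed. DNA topoisomerase II alpha, which untangles sister chromatids, has the single name top2a.L, and it was at 0 in both libraries. Ki-67, the antigen of cycling nuclei, was at 0 under mki67.S, while mki67.L was at 0 in replicate 1 and at 0.117 FPKM in replicate 2. Neither gene had a value of the size of pcna in either library.

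**Figure D2:**
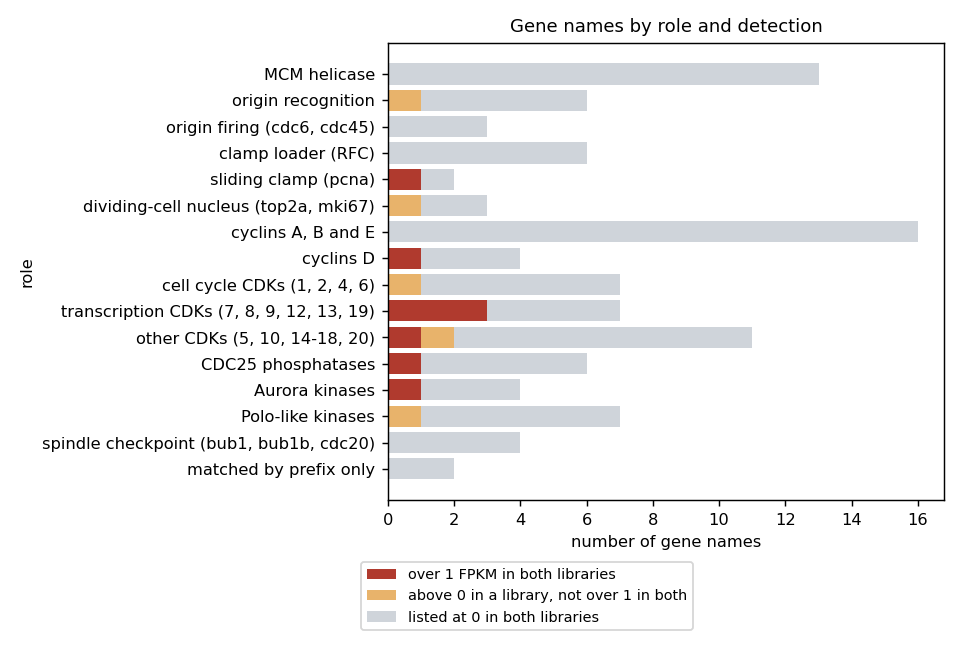
Number of gene names (x axis) in each role (y axis), split into those over 1 FPKM in both libraries (red), those above 0 in a library without passing the limit in both (orange) and those listed at 0 in both (grey). All names of the group labelled MCM helicase, which takes mcm2 to mcm10, are grey. So are those of the clamp loader, cyclins A, B and E and the spindle checkpoint. Of the 7 names of transcription CDKs, 3 are red.

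Among the cyclins, the ones that carry cells through S phase and mitosis were listed at 0. This held for all 16 gene names of cyclins A, B and E, from ccna1 to ccne2, beside 87.1% of all gene names with a symbol. With so few names, no difference from that background is read from this count. Of the D-type cyclins, which link growth signals to entry into the cycle, ccnd2.L had 43.4 FPKM in replicate 1, against 24.8 FPKM in replicate 2, a 1.75-fold higher value in replicate 1. It lies on chromosome 3L from 8003529 to 8040787. The names ccnd2.S, ccnd1.L and ccnd1.S were at 0 in both libraries.

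The kinases that pair with these cyclins were mostly listed at 0 as well, as were 87.1% of all gene names with a symbol. Of the 7 gene names of cdk1, cdk2, cdk4 and cdk6, only cdk1.S, for the mitotic kinase, had a value, at 0 in replicate 1 and 0.864 FPKM in replicate 2. It was under the limit in both libraries, and cdk1.L was at 0.

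Of the CDKs that act on transcription, 3 of 7 gene names passed the limit, beside 8.56% of all gene names with a symbol. The difference from the cell cycle CDKs, with 0 of 7, was not tested. CDK13, which phosphorylates RNA polymerase II during elongation, had the highest average of all 101 gene names. Its L homeolog had 135 FPKM in replicate 1, against 155 FPKM in replicate 2, the closest agreement of the 8 with a 1.15-fold difference. It is placed on chromosome 6L from 63192449 to 63227446, on a row that also carries a numbered gene model.

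CDK9, the kinase of the elongation factor P-TEFb, was the second of these. The name cdk9.L had 6.77 FPKM in replicate 1, against 16.9 FPKM in replicate 2, 2.50-fold higher in replicate 2, and cdk9.S was at 0. It lies on Scaffold70, from 754615 to 764254. CDK8, the kinase of the Mediator complex, differed most between the libraries, with 1.12 FPKM in replicate 1, against 14.7 FPKM in replicate 2 for cdk8.S. That is a 13.1-fold difference, and replicate 1 lay just over the limit. The locus is on chromosome 2S, from 138922341 to 138999751. The names of cdk7, cdk12 and cdk19 were at 0.

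Of the other CDKs, cdk17.L passed the limit with the lowest average of the 8, having 3.88 FPKM in replicate 1, against 1.90 FPKM in replicate 2. Its locus lies on chromosome 3L, from 43307386 to 43406560. CDK17 belongs to the PCTAIRE kinases, which are found in neurons in mammals. The name cdk20.L, placed on chromosome 8S, was at 0 in replicate 1 and at 0.863 FPKM in replicate 2. CDK5, the family member known for its work in postmitotic neurons, was at 0 in both libraries under cdk5.L, and so were all names of its activators cdk5r1 and cdk5r2. The names of cdk10, cdk14, cdk15, cdk16 and cdk18 were at 0 as well.

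Among the mitotic regulators of the 101 gene names, Aurora kinase B had the highest values in both libraries. It is the catalytic subunit of the chromosomal passenger complex, which corrects the attachment of chromosomes to the spindle. The name aurkb.L, on chromosome 3L from 136280871 to 136293054, had 67.5 FPKM in replicate 1, against 133 FPKM in replicate 2, 1.97-fold higher in replicate 2. By average it ranked at place 609 of the 2168 gene names over the limit. The names aurkb.S, aurka.L and aurka.S were at 0, as was incenp, which codes for the scaffold of the same complex.

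CDC25C, the phosphatase that activates CDK1 at the entry into mitosis, had 20.1 FPKM in replicate 1, against 14.6 FPKM in replicate 2. These values belong to a row on chromosome 3L, from 40828834 to 40847954, that names both homeologs. A row for the S homeolog on chromosome 3S, from 97201024 to 97218438, and a row shared with rab5d were at 0, as were cdc25a and cdc25b. Reads of near-identical copies can be assigned to either one, so which copy the mRNA came from is uncertain.

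Of the Polo-like kinases and of bub1, bub1b and cdc20 from the spindle checkpoint, no gene name was over the limit in both libraries. Among all gene names with a symbol, 8.56% were. The stress-responsive kinase PLK3 had 0.299 FPKM in replicate 1, against 1.11 FPKM in replicate 2 under plk3.L. Their ratio, 3.71, equals the estimated relative depth of the libraries. That estimate was made from low values that include these, so the match is not independent. The 6 other names, of plk1 to plk4, were at 0. The checkpoint kinases bub1 and bub1b and the APC/C activator cdc20 were at 0 under all 4 of their names.

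The libraries were also compared with each other. Over the 8 gene names the median absolute difference on the log2(FPKM + 1) scale was 0.876, against 0.985 over all 2168 gene names past the limit. Replicate 1 was higher for pcna, ccnd2, cdc25c and cdk17, and replicate 2 for cdk13, aurkb, cdk9 and cdk8. The median average of the 8 was 25.7 FPKM, against 31.3 FPKM over all gene names past the limit, and 4 of the 8 lay above 31.3 FPKM. The loci of the 8 spanned 5012 to 99175 bp with a median of 27060 bp, against a median of 15791 bp for the 88 listed at 0. These spans include introns and are not transcript lengths.

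**Figure D3:**
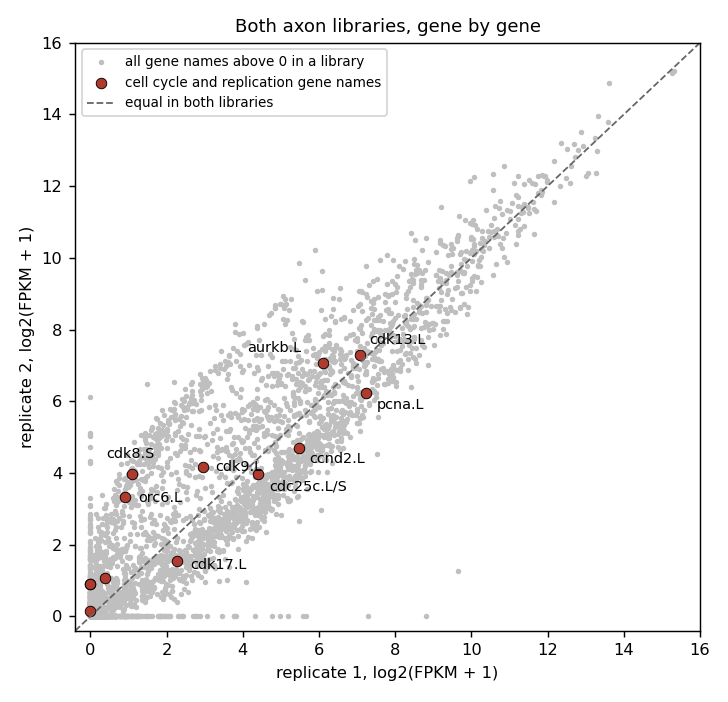
Each gene name with a value above 0 in a library, in replicate 1 (x axis) and replicate 2 (y axis), both as log2(FPKM + 1), with the cell cycle and replication gene names in red over all others in grey. The dashed line marks equal values; pcna, ccnd2, cdc25c and cdk17 lie below it, and cdk8 and orc6 lie farthest above it.

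Where a homeolog pair had a value, it was listed for one partner only. Of 28 pairs with separate L and S names, 7 had a value above 0 in a library, and in 0 of the 7 did both partners have one. The share over all pairs with a value above 0 is not given here, so this count is not read as particular to these genes. The L name had the value for aurkb, ccnd2, cdk9, cdk17, plk3 and mki67, and the S name for cdk1. In the 3 pairs with a value over 10 FPKM, aurkb, ccnd2 and cdk9, the S partner was at 0. Over all genes, one partner was listed at 0 in both libraries in 441 of the 790 pairs with a value over 10 FPKM (55.8%). With so few pairs, no difference from that share is read.

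Published lists of S phase and G2/M genes, and lists of functional groups such as CDK regulators, were examined beside the 101 gene names. Over all 6 lists, 34 of 255 gene names outside the 101 (13.3%) passed, beside 8.56% of all gene names with a symbol. The lists were chosen with earlier results of these data known, and their shares are not read as enrichment. List genes described as being at 0 were picked after their values were seen. Of 61 gene names of a published S phase list, 4 (6.56%) were over 1 FPKM in both libraries, and of 84 gene names of a published G2/M list, 6 (7.14%) were, beside 8.56% of all gene names with a symbol. The S phase list shares 13 gene names with the 101, and the G2/M list 17. The S phase names were pcna, rpa2, nasp and slbp. RPA2, a subunit of the protein that coats single-stranded DNA, had 93.6 FPKM in replicate 1, against 38.4 FPKM in replicate 2. NASP, a histone chaperone, had 32.1 and 9.54 FPKM in replicates 1 and 2 under nasp.L, and SLBP, which binds the stem-loop of histone mRNAs, had 21.8 and 8.49 FPKM under slbp.L. All 4 were higher in replicate 1, as were 54.2% of all gene names past the limit. With so few names, no pattern is read from this. The name ubr7.S of the same list did not pass, with 0.952 FPKM in replicate 1, against 21.7 FPKM in replicate 2.

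The G2/M names over the limit were those of hmgb2, aurkb, tmpo, ect2, dlgap5 and cdc25c. The chromatin protein HMGB2 was highest, with 700 FPKM in replicate 1, against 375 FPKM in replicate 2 under hmgb2.S. The lamina protein TMPO had 45.8 and 119 FPKM, and DLGAP5, a protein of the mitotic spindle, 65.7 and 23.4 FPKM. ECT2, the exchange factor for RhoA in cytokinesis, had 7.09 FPKM in replicate 1, against 93.1 FPKM in replicate 2 under ect2.S. Of these 6, aurkb and cdc25c are among the 101 gene names. Of the 84 gene names of the list, 70 were at 0 in both libraries, beside 87.1% of all gene names with a symbol.

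Of the replication factors outside the pattern, 7 of 51 gene names (13.7%) passed, beside 8.56% of all gene names with a symbol. The rpa2, nasp and slbp names among the 7 are those already given from the S phase list. The 7 include cdt1, the licensing factor that loads the MCM helicase, under both homeologs. The name cdt1.S had 28.8 FPKM in replicate 1, against 13.7 FPKM in replicate 2, and cdt1.L had 25.1 and 14.2 FPKM. Its inhibitor geminin, gmnn, did not pass. Thymidine kinase 1, under tk1.L, had 5.96 and 2.11 FPKM, and rpa3.L had 2.39 and 3.70 FPKM. The gins, pold and pole names and those of lig1 and fen1 were at 0.

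Of the regulators and partners of CDKs, 14 of 65 gene names (21.5%) passed, beside 8.56% of all gene names with a symbol. The highest was cyclin G1, a target of p53, with 573 FPKM in replicate 1, against 680 FPKM in replicate 2 under ccng1.S. FZR1, which keeps the ubiquitin ligase APC/C active in G1 and in neurons, had 217 and 372 FPKM, and the CDK inhibitor p27, cdkn1b, had 348 and 177 FPKM. Cyclin G2, which is known for high levels in arrested mammalian cells, had 173 and 149 FPKM under ccng2.S. These 4 averages were above the 112 FPKM of pcna, and 3 of the 4 were above it by more than 2-fold. Over all cell cycle lists, 8 gene names outside the pattern averaged above pcna. They also include hmgb2.S of the G2/M list, with an average of 537.6 FPKM. From the APC/C list they include ube2s.S and anapc15.S, at 294.2 and 248.2 FPKM, and from the chromosome list rad21.L, at 130.5 FPKM. An average above pcna was thus not particular to the CDK regulators. SKP1, the adaptor of the SCF ubiquitin ligase, had 113 and 105 FPKM on a row naming both homeologs, and 3.04 and 25.1 FPKM under skp1.S. The second cyclin G1 homeolog, ccng1.L, had 44.6 and 13.7 FPKM. Cyclin I, a cyclin of high levels in postmitotic mammalian tissues, had 35.3 and 11.7 FPKM under ccni.S. No cdkn name of this list other than that of cdkn1b passed. Of these, cdkn2c.S had 0.555 FPKM, cdkn2d.L 0.045 FPKM and cdkn2d.S 0.064 FPKM in replicate 1, and all 3 were at 0 in replicate 2.

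Partners of the transcription CDKs were also found in both libraries. Cyclin T2, a partner of CDK9, had 12.8 FPKM in replicate 1, against 50.4 FPKM in replicate 2 under ccnt2.S, and cyclin T1 had 31.3 and 6.09 FPKM under ccnt1.S. The next values were named after they were seen. Cyclin K, the partner of CDK12 and CDK13, was at 0 in replicate 1 and at 0.444 FPKM in replicate 2 under ccnk.L, and cyclin C, the partner of CDK8, was at 0 and 0.805 FPKM under ccnc.L. The CDK-activating partners of CDK7, ccnh and mnat1, were at 0, as was the retinoblastoma gene rb1.

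**Figure D4:**
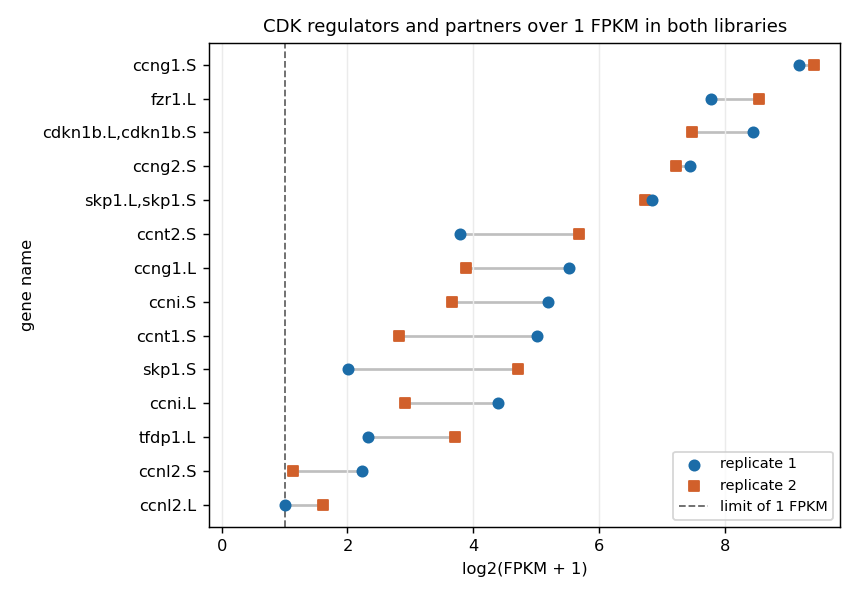
Level of the 14 gene names of CDK regulators and partners that were over 1 FPKM in both libraries, as log2(FPKM + 1) on the x axis, in replicate 1 (circles) and replicate 2 (squares). The grey bars join the libraries, and ccng1.S, fzr1.L, cdkn1b and ccng2.S lie highest. The libraries lie close together for ccng1.S, ccng2.S and the row naming both skp1 homeologs, while skp1.S has the widest gap.

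Of the APC/C and spindle checkpoint list, 3 of 30 gene names (10.0%) passed, beside 8.56% of all gene names with a symbol. The ubiquitin-conjugating enzyme UBE2S, which extends chains for the APC/C, had 332 FPKM in replicate 1, against 256 FPKM in replicate 2. The APC/C subunit anapc15 had 37.3 and 459 FPKM, and replicate 2 was higher for it on the log2(FPKM + 1) scale by 3.59, while bub3.L had 2.26 and 3.86 FPKM. The names of the large APC/C subunits anapc1, anapc2, cdc16, cdc23 and cdc27 were at 0.

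Of the chromosome and spindle list, 7 of 56 gene names (12.5%) passed, beside 8.56% of all gene names with a symbol. Most of the 7 belong to cohesin, the ring that holds sister chromatids and also shapes chromatin in cells that do not divide. The cohesin subunit rad21.L had 51.0 FPKM in replicate 1, against 210 FPKM in replicate 2, and smc3.S had 21.1 and 6.36 FPKM. The row stag2.L had 42.6 and 111 FPKM, and a row naming both stag2 homeologs had 10.8 and 25.7 FPKM. The related stag1.S had 5.32 and 52.4 FPKM, and stag1.L had 10.4 and 4.72 FPKM. The remaining name over the limit was ect2.S. The condensin and kinetochore names ncapd2, ncapg, ncaph, smc2, ndc80, nuf2 and cenpa and the mitotic kinesin kif11 were at 0.

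**Figure D5:**
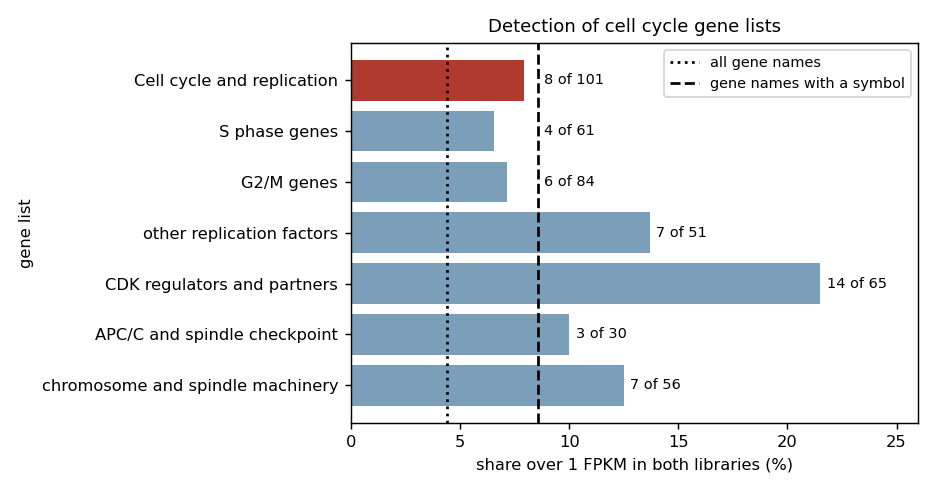
Share of the gene names of each list that were over 1 FPKM in both libraries, in percent on the x axis, with the counts beside each bar. The dotted line is the share of all gene names (4.39%) and the dashed line that of gene names with a symbol (8.56%); the bar of the 101 gene names (red) lies between the lines, and that of CDK regulators and partners is the longest.

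Some markers of other cells of the eye also had values, and their part in the results was not tested. The share of all gene names with a symbol that passed, 8.56%, is the background for the counts of these short lists, and no count is read as the presence of a cell type. Of 17 gene names of retinal progenitor markers, 4 passed, summing to 141 FPKM in replicate 1, against 117 FPKM in replicate 2 over the whole list, of which pax6, also expressed by RGCs, made up most. The name pax6.L had 97.5 and 91.1 FPKM in replicates 1 and 2, and pax6.S had 39.7 and 13.4 FPKM, while notch1.S and six3.L also passed. The progenitor genes rax and sox2 were at 0. Of 8 names of Müller glia markers 2 passed, those of glul and rlbp1.L, with list sums of 21.7 and 63.8 FPKM in replicates 1 and 2. Of 11 names of pigment epithelium markers 1 passed, that of dct, with list sums of 87.2 and 67.1 FPKM. Of 6 names of connective tissue markers 2 passed, col1a1.L and col1a1.S, with list sums of 32.2 and 42.0 FPKM. No name of the lens, blood, immune, endothelial and muscle lists had a value, and of the photoreceptor list 0 of 7 passed.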

How the data were processed

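The authors amplified axonal cDNA by PCR with a protocol made for single cells, used HISAT2 2.1.0 in its default mode against build v9.2 of X. laevis, and deposited FPKM values from Cufflinks 2.1.1 (versions per the submitters' processing notes), 1 file per library, replicates not pooled. The annotation is not given in the sources used here. Amplification can spread low values between libraries, and a homeolog can receive reads of its near copy. Positions are as the files give them. FPKM holds no counts, so depth is unknown and no interval is given.

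Rows of 1 gene name were summed (51037 rows, 49349 gene names). A gene name passed with FPKM over 1 in both libraries, the limit of the study's GO analysis. Log2 values used a pseudocount of 1. A gene name carried a symbol if any part was not a numbered model, transfer RNA or numbered microRNA. Relative depth was the most frequent log2 ratio of replicate 2 to replicate 1 among low values. These were 621 gene names above 0 and under 5 FPKM in both libraries, of which 44 lay within 0.01 of that ratio. The estimate takes this ratio to stand for equal read numbers in both libraries. A simulation was built on the same assumption, so it cannot show whether the assumption holds here. For homeolog pairs, a limit of 10 FPKM was used only where the text names it. The other counts of pairs, also that of pairs over 2-fold apart, used no such limit.

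The members, lists and roles were chosen with earlier results of these data known. Every member above 0 was named with its values, and of each cell cycle list up to the 10 highest gene names over the limit. No test was made, for lack of a second condition. Alternatives were other limits, homeolog and row handling, backgrounds, pseudocounts and single libraries. No gene sequences were used here. Python 3.11.15, numpy 2.4.6, pandas 2.3.3 and matplotlib 3.10.9 were used.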

Additional observations from a re-analysis of the deposited data

How the results depend on the processing

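The count of 8 cell cycle gene names over the limit in both libraries was 5 with a limit of 10 FPKM. Leaving out rows that carry more than 1 name gave 4. For pcna, cdk13 and cdk17 the other name on such a row is only a numbered model. The count was also 4 without CDKs other than cdk1, cdk2, cdk4 and cdk6 and without plk2 and plk3. It was 8 to 10 in single libraries. With homeologs summed it stayed at 8. The share of all gene names over the limit, 4.39%, was 8.56% among names with a symbol and 65.0% among names above 0 in at least one library. On that last base, 8 of 13 cell cycle gene names (61.5%) passed, so 65.0% is not to be set beside 7.92%. The mean share of the 101 names in all FPKM, 0.0654%, came to 0.0874% when the 10 highest gene names were dropped, 0.0482% without pcna and 0.0617% to 0.0691% in single libraries. The G2/M count of 6 was 11 with a limit of 0. In single libraries, the count at 0 was 88 to 91, the S phase count 4 to 5, the G2/M count 6 to 9 and the CDK regulator count 14 to 15. The number of homeolog pairs over 2-fold apart in the same direction in both libraries, 4, was 2 with a pseudocount of 10. The shifts in counts and shares of gene names follow from the names or limits that each alternative leaves out or adds, and a larger pseudocount shrinks log2 ratios by construction. The alternatives for CDK regulators and for the count at 0 were chosen after seeing the data. No paired analysis was possible because there is a single group. Unknown depth limits what a value of 0 can show.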

Other observations

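Of the 8 cell cycle gene names over the limit in both libraries, 5 (pcna, aurkb, ccnd2, cdc25c and cdk17) lie on chromosome 3L, out of 9 of the 101 gene names placed there. Of all 2168 gene names past the limit, 144 (6.64%) lie on this chromosome. Those 144 are 4.63% of all 3107 gene names on it, beside 4.39% passing in the whole files. Among gene names with a symbol, which all members carry, 8.56% passed in the whole files. That share is not given for this chromosome alone. The chromosome was singled out after the values were seen, and no test was made.

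The values of ect2.S, anapc15.S and cdk8.S were far apart in the libraries, with log2(FPKM + 1) differences of 3.54, 3.59 and 2.89. These names were picked for their gaps, and stag1.S, at 3.08, was wider apart than cdk8.S. All of these were higher in replicate 2, the library with the lower estimated depth. In the other direction, ccnt1.S had a difference of -2.19. Over all gene names past the limit, the median absolute difference was 0.985 and 54.2% were higher in replicate 1. Whether depth plays a part was not tested.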
